A study of Homo sapiens with 6 samples.

Results

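The data describe 10 genes of blood vessel growth and oxygen sensing with and without added CD90 in HuCCT1, a human line of intrahepatic cholangiocarcinoma (cancer of the bile ducts within the liver). The members are the ligands VEGFA, VEGFB, VEGFC and PGF, the secreted factors ANGPTL4, ANGPT2 and ADM, the transcription factors HIF1A and EPAS1, and the enzyme gene CA9. They were picked by gene symbol, with earlier results of these data known, and make up 10 of the 20811 genes in the table. HuCCT1/CD90+ cells were transduced with a lentivirus carrying human THY1, the gene of CD90, and CMV-GFP, and HuCCT1/CD90- cells with a blank Lenti-CMV-GFP-2A-Puro vector, so both lines had been exposed to virus and GFP. Each line was grown in serum-containing RPMI and gave 3 libraries. The lines were not compared with untransduced cells, and whether a line is a pool or a clone is not given in the sources used here. RNA was read by amplicon sequencing (Ion AmpliSeq Transcriptome), with 1 amplicon per gene, and the values are RPM (reads of a gene scaled to a common total per library).

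VEGFA drives the growth of blood vessels by binding receptors on endothelial cells, PGF and VEGFB bind a part of the same receptors, and VEGFC mainly drives the growth of lymphatic vessels. HIF-1α and HIF-2α, the products of HIF1A and EPAS1, are destroyed when oxygen is plentiful and, when it is scarce, pair with ARNT to switch on genes such as VEGFA, CA9, ADM and ANGPTL4. Because that control acts on the proteins, the HIF transcripts measured here do not give HIF activity. In solid tumours VEGFA and CA9 are widely used as markers of oxygen shortage.

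The HuCCT1/CD90- libraries held 9345680 to 10551516 reads and the HuCCT1/CD90+ libraries 8587634 to 9327650, so that 3 reads, used as the detection floor, stood for 0.284 to 0.349 RPM. THY1 was at 0, 1 and 0 reads in HuCCT1/CD90-, against 435, 445 and 680 in HuCCT1/CD90+, as the labels imply. The 7 biliary epithelial markers were all present, with a summed level of 8210 to 9314 RPM in HuCCT1/CD90-, against 10974 to 11722 RPM in HuCCT1/CD90+. The 4 leukocyte markers summed to 120 to 144 RPM and 88.1 to 105 RPM, of which PTPRC, the defining marker, had at most 1 read in any library and CD3E at most 3. Within that sum CD14 fell from 80.8 to 4.32 RPM (adjusted p = 0.00037, limma) and CD68 rose from 50.8 to 92.2 RPM (adjusted p = 0.0089). The part of these shifts in the results was not tested. A gene is said to have passed where its adjusted p was at most 0.05 in limma on log2(RPM + 1) over all 20811 genes. That fit includes 3805 genes without a read, and its variance prior carried 0.449 degrees of freedom, against 7.23 in a fit of the 12062 genes averaging 1 RPM or more, here called expressed genes, so calls from this second fit are given where they differ. On simulated data the fit over all genes found fewer of the changed genes and made more false calls than the fit over expressed genes. In those data only genes averaging 10 RPM or more were changed, and every gene had the same spread beyond counting error. Real genes differ in spread, so the simulation cannot show which fit is better here. As the samples are bulk RNA, fewer cells making a transcript and less transcript per cell cannot be told apart.

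Of the 10 members, PGF, HIF1A, EPAS1 and CA9 passed, and all 4 were lower in HuCCT1/CD90+, where 9.52% of all genes passed as lower and 18.9% in either direction. None passed as higher in limma, where 9.41% of all genes did, while at an unadjusted p under 0.05 there was 1 (VEGFC, beside 15.3% of all genes higher at that limit), as there was with edgeR on recovered reads (22.2% of the genes it tested) and with DESeq2. Among the expressed genes, where 9 members could be tested, VEGFA was also lower and VEGFC higher, which makes 5 lower and 1 higher beside 21.1% and 20.6% of the genes tested, or 41.7% in either direction. The counts of 5 and 1 were the same with edgeR and DESeq2, where 44.4% and 37.1% of genes passed in either direction. With the replicate number as a block, PGF, EPAS1 and CA9 passed, beside 13.1% of all genes. At the thresholds of the study's methods (a fold change of 1.5 and an unadjusted p of at most 0.05), 5 of the 10 members differed, beside 20.1% of all genes. The values of the lines did not overlap for 5 members, namely PGF, HIF1A, EPAS1, CA9 and VEGFC, beside 35.0% of all genes. The median log2 fold change over the 10 members was -0.40, or -0.68 over the 9 expressed ones, and that over all genes was 0, or -0.0086 over expressed genes.

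**Figure D1:**
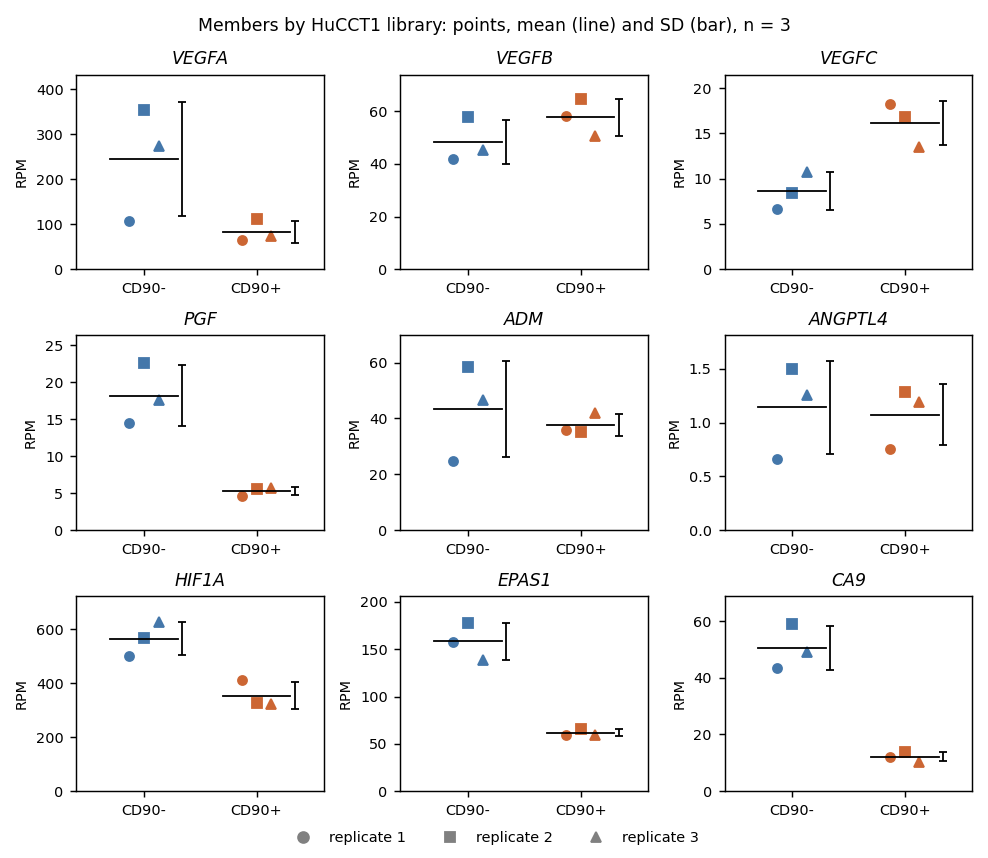
RPM of the 9 detected members in each library (vertical axes in RPM, starting at 0) for HuCCT1/CD90- in blue and HuCCT1/CD90+ in orange, with the replicate number as the shape, the mean as a line and the SD as a bar beside it (n = 3). The points of the lines lie apart for PGF, HIF1A, EPAS1, CA9 and VEGFC and overlap for VEGFA, VEGFB, ADM and ANGPTL4.

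VEGFA, on chromosome 6 of GRCh38 from 43770184 to 43786487 in GENCODE 29, had 107, 353 and 274 RPM in HuCCT1/CD90- replicates 1, 2 and 3. In HuCCT1/CD90+ it had 65.1, 111 and 73.0 RPM. Replicate 1 of HuCCT1/CD90- therefore lay inside the range of HuCCT1/CD90+, whereas its other 2 libraries were above every HuCCT1/CD90+ library. Between libraries with the same number, the HuCCT1/CD90+ value was the lower each time. The means were 245 ± 126 and 83.2 ± 24.8 RPM (mean ± SD, n = 3), with log2 fold change -1.42 (standard error 0.54, 95% confidence interval -2.87 to 0.032). The difference did not pass over all genes (adjusted p = 0.17, limma), nor with the replicate number as a block (adjusted p = 0.13). It passed among expressed genes (adjusted p = 0.0096). Without HuCCT1/CD90- replicate 1 the log2 fold change was -1.93 (adjusted p = 0.043), whereas with any of the other 5 libraries left out VEGFA did not pass (adjusted p 0.22 to 0.37, log2 fold change -1.65 to -1.07). The spread itself was unusual, since the SD of log2(RPM + 1) of VEGFA within HuCCT1/CD90- exceeded that of 99.8% of the 8794 genes averaging 10 RPM or more, and within HuCCT1/CD90+ that of 96.2%.

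PGF encodes placental growth factor, a ligand of the receptor FLT1, and lies on chromosome 14 from 74941834 to 74955784. It had 14.4, 22.6 and 17.6 RPM in HuCCT1/CD90-, against 4.61, 5.59 and 5.64 RPM in HuCCT1/CD90+. All 3 HuCCT1/CD90+ libraries lay well under the lowest HuCCT1/CD90- library. PGF fell from 18.2 ± 4.12 to 5.28 ± 0.581 RPM (mean ± SD, n = 3), with log2 fold change -1.59 (standard error 0.18, adjusted p = 0.0086, limma). Its adjusted p was 0.014 to 0.040 with any 1 library left out.

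VEGFC and VEGFB had log2 fold changes above 0. VEGFC, the lymphatic growth factor, lies on chromosome 4 from 176683538 to 176792727. It had 6.63, 8.45 and 10.8 RPM in HuCCT1/CD90-, against 18.2, 16.8 and 13.5 RPM in HuCCT1/CD90+, so that every HuCCT1/CD90+ library was above every HuCCT1/CD90- library. The means were 8.62 ± 2.07 and 16.1 ± 2.44 RPM (mean ± SD, n = 3), and the log2 fold change was 0.85 (standard error 0.21), with an adjusted p of 0.059 over all genes and 0.0043 among expressed genes (limma). Among the 50 nearest genes on chromosome 4 averaging 10 RPM or more the median log2 fold change was 0.38, and with the HuCCT1/CD90+ RPM divided by this change before 1 was added and logs were taken, the log2 fold change of VEGFC was 0.50 (adjusted p = 0.21). Over all genes VEGFC passed with quantile normalization (adjusted p = 0.036) and with median centring (adjusted p = 0.017), and did not with the replicate block (adjusted p = 0.20) or with any library left out (adjusted p 0.061 to 0.16). The part of the neighbourhood in the result was not tested further. VEGFB, a ligand better known for its role in heart muscle and fat than for vessel growth, had 41.9, 57.8 and 45.2 RPM in HuCCT1/CD90-, against 58.2, 64.6 and 50.6 RPM in HuCCT1/CD90+. The ranges overlapped, and the log2 fold change of 0.26 did not pass (95% confidence interval -0.17 to 0.69, adjusted p = 0.39, limma). Its neighbours on chromosome 11 had a median of 0.35, and with the RPM divided by this change in the same way the log2 fold change was -0.079.

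ADM, the gene of the vessel-dilating peptide adrenomedullin and a familiar target of HIF, did not pass in either fit. The gene, on chromosome 11 from 10304680 to 10307397, had 24.7, 58.5 and 46.7 RPM in HuCCT1/CD90-, against 35.8, 35.05 and 42.1 RPM in HuCCT1/CD90+. The HuCCT1/CD90- libraries spanned the whole range of HuCCT1/CD90+, with replicate 1 below it and the other 2 above. The log2 fold change was -0.12 (95% confidence interval -1.06 to 0.82, adjusted p = 1.0, limma), an interval that leaves room for a change of more than 1.5-fold either way. Within HuCCT1/CD90- the SD of ADM exceeded that of 98.9% of genes averaging 10 RPM or more, against 42.3% within HuCCT1/CD90+.

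The other secreted members were scarce or absent. ANGPTL4, an inhibitor of lipoprotein lipase that also acts on vessels, had 7, 14 and 13 reads in HuCCT1/CD90- and 7, 11 and 11 reads in HuCCT1/CD90+, or 0.663 to 1.498 and 0.750 to 1.28 RPM. The lines overlapped (log2 fold change -0.034, 95% confidence interval -0.57 to 0.51, adjusted p = 1.0, limma), and counting error is wide at 7 to 14 reads per library. ANGPT2, which encodes angiopoietin-2, an antagonist of the receptor TEK released mainly by endothelial cells, had 0 reads in each of the 6 libraries, which allows up to 0.284 to 0.349 RPM per library.

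HIF1A and EPAS1 were both lower in HuCCT1/CD90+. EPAS1, on chromosome 2 from 46293667 to 46386703, had 158, 178 and 139 RPM in HuCCT1/CD90-, against 59.7, 66.02 and 59.5 RPM in HuCCT1/CD90+, with a wide gap between the lines. It fell from 158 ± 19.6 to 61.7 ± 3.72 RPM (mean ± SD, n = 3), with log2 fold change -1.34 (standard error 0.11, adjusted p = 0.0033, limma), and passed whichever library was left out (adjusted p 0.0087 to 0.023). HIF1A, on chromosome 14 from 61695513 to 61748259, had 502, 567 and 628 RPM in HuCCT1/CD90-, against 411, 328 and 324 RPM in HuCCT1/CD90+. The lines did not overlap, but the gap between them was narrower in proportion than for EPAS1. HIF1A fell from 566 ± 62.8 to 354 ± 49.2 RPM (mean ± SD, n = 3), with log2 fold change -0.68 (standard error 0.14, adjusted p = 0.037, limma). This call was lost with the replicate number as a block (adjusted p = 0.15) and when any library other than HuCCT1/CD90+ replicate 1 was left out (adjusted p 0.058 to 0.12), while among expressed genes its adjusted p was 0.0066.

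CA9 encodes carbonic anhydrase IX, a cell surface enzyme that helps tumour cells to keep their internal pH, and it showed the largest fall of the 10 members. The gene, on chromosome 9 from 35673856 to 35681159, had 43.4, 59.0 and 49.2 RPM in HuCCT1/CD90-, against 12.1, 13.6 and 10.4 RPM in HuCCT1/CD90+, so each HuCCT1/CD90- library was far above all those of HuCCT1/CD90+. CA9 fell from 50.5 ± 7.86 to 12.1 ± 1.604 RPM (mean ± SD, n = 3), a 4.19-fold difference of the means and log2 fold change -1.98 (standard error 0.15, adjusted p = 0.0031, limma). It passed in each of the 19 alternative settings, as did EPAS1 and PGF.

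**Figure D2:**
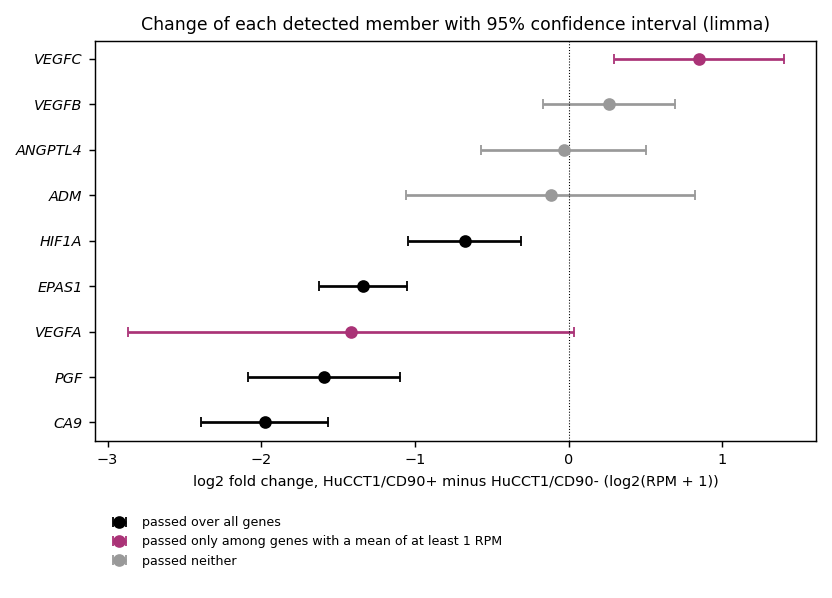
Log2 fold change of each detected member (horizontal axis, HuCCT1/CD90+ minus HuCCT1/CD90- on log2(RPM + 1), points with 95% confidence intervals from limma over all genes). CA9, PGF, EPAS1 and HIF1A lie below 0 with narrow intervals, VEGFA has the widest interval (-2.87 to 0.032), and VEGFC is the single member whose interval lies above 0.

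The letters that HIF binds, ACGTG or GCGTG, were searched on both strands in the 250 bases before the starts that RefSeq annotates (GRCh38.p14). VEGFA and ANGPT2 were not searched. Each of the other 8 members held the letters before at least 1 annotated start, as did 47.4% of the 27305 genes in that reference, and PGF and HIF1A held them before 1 of their 2 starts. The sites of the 4 members that fell and of ADM, which did not pass, follow with 12 bases on either side, 5′ to 3′ on the strand of the gene, with the match in capitals (CACGT and CACGC are matches read from the opposite strand).
CA9: tcgtttccaatgCACGTacagcccgtaca
EPAS1: gggcctgccggcGCGTGcccgcccacaca
HIF1A: tggctgagagcgGCGTGggctggggtggg
PGF: gagagcccctcgCACGCactgcgggctcc
ADM: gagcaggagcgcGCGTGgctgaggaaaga
They lie at chr9:35673898-35673926 (plus strand), chr2:46297278-46297306 (plus), chr14:61695297-61695325 (plus), chr14:74955743-74955771 (minus) and chr11:10304960-10304988 (plus). The match of CA9 sits 18 to 14 bases before the start and holds ACGTG, which 18.5% of the 35116 windows contain, and that of ADM, with GCGTG, sits 101 to 97 bases before the start. The letters are thus present both before CA9, which fell, and before ADM, which did not pass. None of the matches is shown here to be bound, and the part of the letters in the changes was not tested.

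The receptors through which the VEGF ligands act on endothelial cells were at or under the floor. KDR had 1 read in 1 HuCCT1/CD90+ library and none elsewhere, and FLT1 and FLT4 had none, which allows up to 0.284 to 0.349 RPM per library. The co-receptors were present. NRP1, a neuropilin that binds VEGFA and semaphorins, had 417, 468 and 496 RPM in HuCCT1/CD90-, against 244, 277 and 269 RPM in HuCCT1/CD90+, and fell with log2 fold change -0.80 (standard error 0.087, adjusted p = 0.0074, limma). NRP2, which binds VEGFC as well, fell from 220 ± 62.4 to 80.2 ± 6.93 RPM (mean ± SD, n = 3), log2 fold change -1.40 (adjusted p = 0.029, or 0.054 with the replicate block). NRP2 passed without HuCCT1/CD90- replicate 1 (adjusted p = 0.0058) and did not with any other library left out (adjusted p 0.081 to 0.097). Like VEGFA, NRP2 was lowest in replicate 1 within HuCCT1/CD90- (148, 262 and 249 RPM), but here all HuCCT1/CD90- libraries stayed above HuCCT1/CD90+.

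Of the 15 further ligands and receptors, 5 passed, all lower (9.52% of all genes), and with the replicate block 2 did, beside 13.1% of all genes. Among expressed genes 4 of the 5 tested were lower and 1 higher, beside 21.1% and 20.6% of genes, namely RAMP1 (16.5 ± 2.73 and 26.9 ± 8.04 RPM, overlapping lines, adjusted p = 0.038), which was singled out after its values were seen. The median log2 fold change of the 15 was 0, as 7 of the 15 were at the floor in both lines. It was -0.94 without these and with ANGPT1, ANGPT4 and VEGFD at their bounds. A bound sets the mean of the line above the floor against the floor of 3 reads in the other line. That of VEGFD was 0.594-fold and so gives no direction. ANGPT1, the angiopoietin that activates the receptor TEK and steadies vessels, had 158, 204 and 250 reads in HuCCT1/CD90- and 1, 1 and 0 reads in HuCCT1/CD90+, at least 61.3-fold lower (adjusted p = 0.00091, limma). TIE1, a partner of TEK, fell from 4.09 ± 1.28 to 0.477 ± 0.245 RPM (mean ± SD, n = 3; adjusted p = 0.011, or 0.064 with the block), while TEK itself had at most 6 reads in any library. ANGPT4, another ligand of TEK, had 6 to 9 reads in HuCCT1/CD90- and none in HuCCT1/CD90+, a bound of 2.12-fold lower. Its adjusted p was 0.012 (limma), or 0.056 with the block and 0.051 to 0.055 without HuCCT1/CD90+ replicate 1, 2 or 3. ADM has its receptor in CALCRL with RAMP2 or RAMP3, and CALCRL had at most 3 reads per library and the 2 RAMP genes none. The 7 endothelial markers summed to 14.9 to 24.1 RPM in HuCCT1/CD90-, against 4.34 to 5.01 RPM in HuCCT1/CD90+. Of these, CLDN5 and EMCN were at 0 in every library, VWF was at 0 in HuCCT1/CD90-, and CDH5 had 13.4 to 19.7 RPM in HuCCT1/CD90- and at most 0.429 RPM in HuCCT1/CD90+. ESAM went the other way, from 0.329 ± 0.220 to 3.54 ± 0.412 RPM (mean ± SD, n = 3; adjusted p = 0.0034, limma). The part of these markers in the falls was not tested. The 5 fibroblast markers summed to 41.0 to 64.4 RPM in HuCCT1/CD90-, against 20.3 to 24.7 RPM in HuCCT1/CD90+, and the part of these, too, was not tested. COL1A1 was at 13.5 ± 2.21 and 14.2 ± 0.186 RPM (mean ± SD, n = 3; adjusted p = 0.82), while DCN, PDGFRB, LUM and COL3A1 passed as lower (adjusted p 0.00099 to 0.046, limma), with DCN at 24 to 105 reads in HuCCT1/CD90- and at most 1 in HuCCT1/CD90+ and COL3A1 at 0 in HuCCT1/CD90+. PDGFRB passed with any library left out, whereas LUM lost its call with each of the 6 libraries left out (adjusted p 0.057 to 0.13), DCN with any but HuCCT1/CD90- replicate 1 (0.075 to 0.11) and COL3A1 with any but HuCCT1/CD90- replicate 2 (0.063 to 0.13). With the replicate block PDGFRB and LUM passed.

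Among the 7 other ANGPTL genes, 6 were at the floor in both lines and 0 passed in limma, beside 18.9% of all genes, with 0 at an unadjusted p under 0.05, beside 31.1%. Their few reads left 0 of the 7 in the filtered edgeR fits and gave an adjusted p for 2 in DESeq2, neither of which passed, and 0 passed in the edgeR fit without a filter.

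Of 14 genes of the machinery that senses oxygen, EGLN2 was higher and ELOB lower, beside 18.9% of all genes passing in either direction, and the median log2 fold change was -0.12. EGLN2, 1 of the 3 prolyl hydroxylases that mark HIF for destruction, rose from 76.5 ± 5.68 to 110 ± 4.996 RPM (mean ± SD, n = 3), with log2 fold change 0.51 (standard error 0.068, adjusted p = 0.012, limma, or 0.052 without HuCCT1/CD90+ replicate 1). EGLN1 and EGLN3 did not pass, with log2 fold changes of -0.12 and -0.34, nor did HIF1AN, the hydroxylase that blocks HIF from its coactivators (0.072, adjusted p = 0.78). ELOB (listed as TCEB2), a subunit of the VHL ubiquitin ligase, fell with log2 fold change -0.38 (adjusted p = 0.037), but not with the block (0.13), among expressed genes (0.060) or with any library left out (0.055 to 0.11). Among expressed genes 2 of the 12 tested were higher and 2 lower, beside 20.6% and 21.1% of genes. ELOC (listed as TCEB1), the partner of ELOB, was the other higher gene, with 89.5 ± 7.50 RPM in HuCCT1/CD90-, against 129 ± 27.4 RPM in HuCCT1/CD90+ (adjusted p = 0.038, or 0.13 over all genes), and was singled out after its values were seen. VHL, which recognises hydroxylated HIF, had 141 ± 15.1 RPM in HuCCT1/CD90-, against 84.3 ± 19.5 RPM in HuCCT1/CD90+, with an adjusted p of 0.068 over all genes and 0.0071 among expressed genes (limma). ARNT, the partner of both HIF proteins, had log2 fold change -0.80 (adjusted p = 0.12, or 0.012 among expressed genes), and its neighbours on the chromosome had a median of -0.54, and with the RPM divided by this change the value was -0.28 (adjusted p = 0.60).

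A list of 30 further genes that hypoxia commonly induces did not move one way. In the fit over all genes 8 were lower and 2 higher, beside 9.52% and 9.41% of all genes, and among expressed genes 10 were lower and 8 higher, beside 21.1% and 20.6%. With the RPM divided by the median change of neighbouring genes 6 of the 30 passed, beside 16.1% of all genes, and with the replicate block 9 did, beside 13.1%. ERO1A, among the 6, had no neighbour value and was left undivided. The list's median log2 fold change was -0.0063, where all genes gave 0. CA12, a membrane carbonic anhydrase like CA9, fell furthest, from 26.4 ± 9.27 to 0.881 ± 0.272 RPM (mean ± SD, n = 3), with log2 fold change -3.82 (standard error 0.31, adjusted p = 0.0034, limma). AK4, a mitochondrial adenylate kinase, and SLC16A3, the lactate exporter MCT4, fell with log2 fold changes of -0.78 (adjusted p = 0.0015) and -0.75 (adjusted p = 0.0095, or 0.054 with the replicate block). With the RPM divided by the neighbour change the log2 fold change of AK4 was -0.47 and passed. TMEM45A and ERO1A (listed as ERO1L), an oxidase of the endoplasmic reticulum that helps to form disulfide bonds, rose with log2 fold changes of 1.08 and 0.81 (adjusted p = 0.014 and 0.015). The call of TMEM45A was lost with the RPM divided by the neighbour change (median log2 fold change 0.54; log2 fold change 0.56, adjusted p = 0.080) and without HuCCT1/CD90- replicate 1 or 3 or HuCCT1/CD90+ replicate 2 or 3 (adjusted p 0.052 to 0.059). That of ERO1A was lost without HuCCT1/CD90- replicate 1 or HuCCT1/CD90+ replicate 1 or 3 (adjusted p 0.052 to 0.063). NDRG1, a stress response gene named after its values were seen, had 92.5 ± 22.3 RPM in HuCCT1/CD90-, against 250.1 ± 72.3 RPM in HuCCT1/CD90+, with an adjusted p of 0.051 over all genes, 0.018 with the replicate block and 0.00086 among expressed genes. The glucose transporter gene SLC2A1, singled out after its values were seen, had 1395 to 1449 RPM in HuCCT1/CD90-, against 1289 to 1517 RPM in HuCCT1/CD90+ (log2 fold change -0.013, 95% confidence interval -0.19 to 0.17, adjusted p = 1.0).

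**Figure D3:**
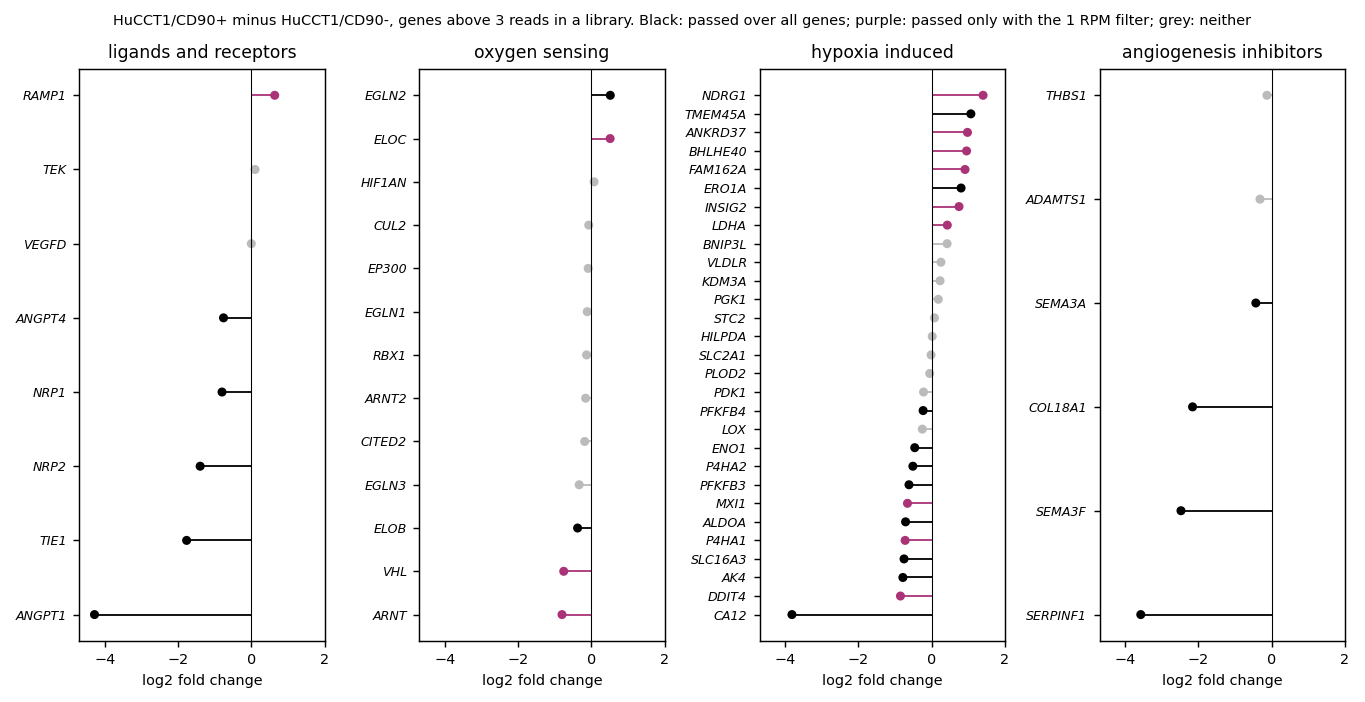
Log2 fold change (horizontal axes, HuCCT1/CD90+ minus HuCCT1/CD90-) of the genes of 4 pathway lists with more than 3 reads in at least 1 library, each gene a point joined to 0. The ligands and receptors that passed over all genes (black) lie below 0, with ANGPT1 at -4.29, whereas the hypoxia induced genes spread to both sides, from -3.82 for CA12 to 1.41 for NDRG1.

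Of 8 genes of secreted inhibitors of vessel growth, 4 passed, all lower (9.52% of all genes), with a median log2 fold change of -0.37. SERPINF1, the gene of pigment epithelium-derived factor, fell from 16.5 ± 1.65 to 0.480 ± 0.273 RPM (mean ± SD, n = 3), log2 fold change -3.58 (adjusted p = 0.00095, limma). COL18A1, whose collagen contains the fragment endostatin, fell from 389 ± 33.2 to 88.7 ± 25.5 RPM, and SEMA3F, a semaphorin that binds NRP2, from 38.5 ± 0.725 to 6.20 ± 1.502 RPM. SEMA3A, which binds NRP1, fell with log2 fold change -0.43 (adjusted p = 0.013, or 0.082 with the replicate block, and 0.055 and 0.054 without HuCCT1/CD90- replicate 3 and HuCCT1/CD90+ replicate 1), and the value was -0.93 with the RPM divided by the neighbour change. THBS1, the gene of thrombospondin-1, did not pass (log2 fold change -0.13, adjusted p = 0.79).

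The spread of VEGFA and ADM between libraries was looked at further, after their values had been seen. HuCCT1/CD90- replicate 1 had the lowest value of its line for 8 of the 9 detected members, all but EPAS1, and for 43.7% of the 12062 expressed genes. On the hypoxia induced list this library was lowest for 14 of the 28 expressed genes. The genes with the profile nearest to that of VEGFA over the 6 libraries were TNFRSF6B, ZNF697, IL6, FCHO1 and SOD2, with a root mean square difference of 0.20 to 0.31 between centred log2(RPM + 1) values, where the median of the 8793 genes searched was 0.94. IL6, the gene of interleukin-6, had 5.59, 25.5 and 19.6 RPM in HuCCT1/CD90-, against 5.36 to 5.82 RPM in HuCCT1/CD90+, and SOD2, a mitochondrial superoxide dismutase, had 182, 479 and 437 RPM and 123 to 151 RPM. As these genes were picked for a profile like that of VEGFA, their low values in HuCCT1/CD90- replicate 1 restate the choice. The genes nearest to ADM were FOSL2, RPRD2, LOX, RAB27B and SAA2, at 0.096 to 0.13 (median of those searched 0.46). LOX, a collagen crosslinking enzyme on the hypoxia induced list, had 17.4, 36.3 and 30.7 RPM in HuCCT1/CD90-, against 20.8 to 23.6 RPM in HuCCT1/CD90+.

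**Figure D4:**
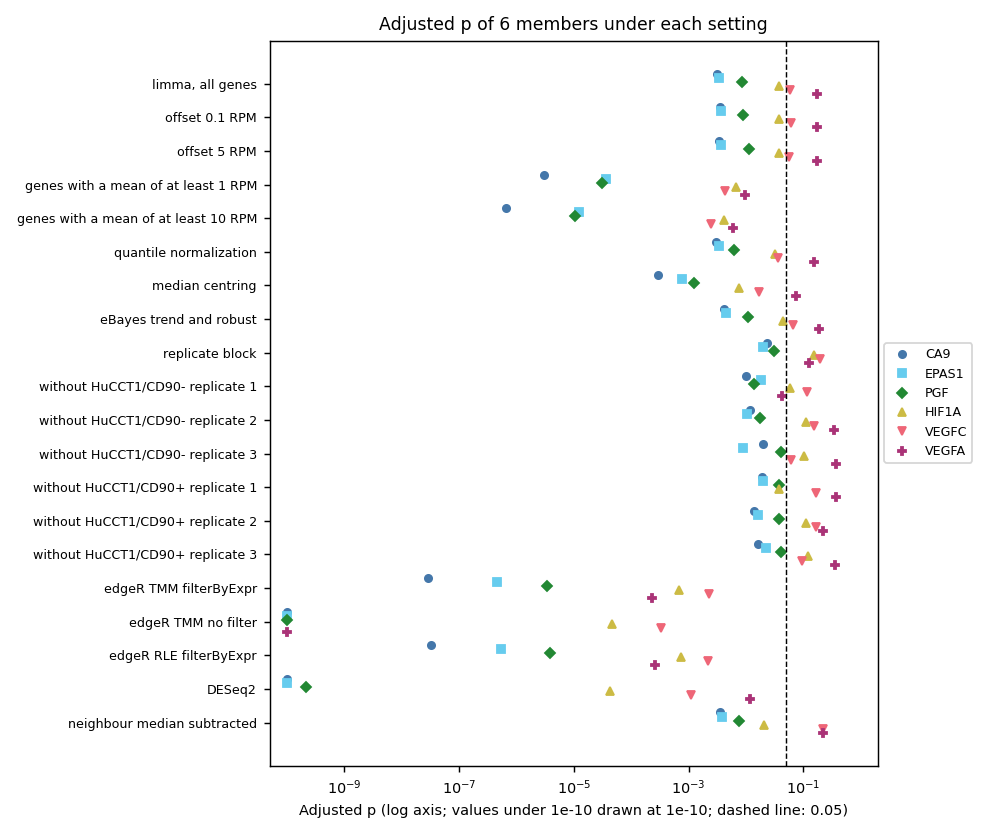
Adjusted p (horizontal log axis, values under 1e-10 drawn at 1e-10) of 6 members under the fit over all genes and each of the 19 alternatives (rows), with 0.05 as a dashed line. CA9, EPAS1 and PGF stay left of the line in every row, HIF1A crosses it with the replicate block and with 5 of the 6 left-out libraries, and VEGFA and VEGFC lie left of it when genes with low values are left out or recovered reads are tested. VEGFC is also left of it with quantile normalization and median centring, and VEGFA without HuCCT1/CD90- replicate 1.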

How the data were processed

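Amplicon reads were counted by the authors in Torrent Suite (ampliSeqRNA plugin), and the submitters' processing notes name hg19 and the Transcriptome Analysis Console. The deposited values are RPM, 1 table with no filter on low values and no coordinates. A single amplicon per gene is blind to isoforms outside it, and levels were not compared between genes, although RPM was summed over marker lists. From the RPM values whole reads were recovered for at least 99.97% of values per library (within 0.05 reads). Without molecular identifiers PCR reads are not independent molecules, and floors cover only counting error.

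Tests used limma 3.58.1 in R 4.3.3 (lmFit and eBayes) on log2(RPM + 1), which understates the change of low genes, with Benjamini-Hochberg adjustment over all genes. Simulated data were used to try limma over all genes and with a minimum mean of 1 RPM, edgeR (TMM, filtered) and DESeq2. The fit over all genes did less well there than the fit with a minimum mean of 1 RPM. Only genes averaging 10 RPM or more were changed in those data, with the same spread for every gene. They therefore cannot show which fit is better for the real genes. The alternatives were offsets of 0.1 and 5 RPM, minimum means of 1 and 10 RPM, quantile normalization, median centring, eBayes with trend and robust settings, each library left out, the replicate number as a block, division of the HuCCT1/CD90+ RPM by the median change of 50 neighbouring genes averaging 10 RPM or more (GENCODE 29 order), before 1 was added and logs were taken, 2-fold as the minimum change, and the quasi-likelihood test of edgeR 4.0.16 (TMM or RLE) and DESeq2 1.42.0 on recovered reads. Positions were known for 18609 of the 20811 genes. Genes without a neighbour value, among them ELOB, ELOC and ERO1A, were left undivided. The members and lists were chosen with earlier results of these data known. Named genes are the members, listed genes that passed (where over 6 of a list passed, up to 3 largest rises and 3 largest falls), preset receptors and HIF regulators, markers, and the 5 genes nearest in profile to VEGFA and to ADM. Outside this rule SLC2A1, RAMP1, ELOC, THBS1 and NDRG1 were named after their values were seen.

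The labels number the libraries 1 to 3 but do not say that they are separate cultures, so p-values measure the spread between these libraries. To look for duplicate libraries, read counts were compared within each line, and no pair held the same counts (chi-square per degree of freedom 9.18 to 25.2), which does not tell repeat libraries of 1 RNA from separate cultures. Deviations of same-numbered libraries from their line means correlated with r = 0.21, 0.32 and 0.18. For libraries with different numbers r was -0.29 to 0.071. The labels do not state a pairing, and correlations this weak do not establish one. The fit over all genes therefore stands without a pairing, and the replicate block is 1 of the alternatives. If the numbers do pair the libraries, the calls with the block apply, where PGF, EPAS1 and CA9 passed and HIF1A did not (adjusted p = 0.15, limma).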

Additional observations from a re-analysis of the deposited data

How the results depend on the processing

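In the 19 alternative fits CA9, EPAS1 and PGF stayed lower and past the threshold. The number of members that passed was 4 as reported, 3 with the replicate block, 3 to 4 with 1 library left out, 5 with quantile normalization or median centring, and 6 among expressed genes and with edgeR or DESeq2. At the study's thresholds it was 5, and 3 with a minimum fold change of 2. VEGFB changed sign with the neighbour change removed (-0.079). ANGPTL4 changed sign with quantile normalization (0.0044) and with the neighbour change removed (0.065), and ranged from -0.21 to 0.088 with 1 library left out, as ADM did from -0.47 to 0.14.

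The ligand and receptor count (5) was 2 with the replicate block and 3 to 5 with 1 library left out, 3 without HuCCT1/CD90+ replicate 1 or 3. The oxygen sensing count (2) was 4 and 5 with minimum means of 1 and 10 RPM, 4 with median centring, 1 with the replicate block, 0 to 2 with 1 library left out (0 without HuCCT1/CD90+ replicate 1, and 1 without HuCCT1/CD90- replicate 2 or 3 or HuCCT1/CD90+ replicate 3), and 5 with each edgeR fit and with DESeq2. The hypoxia induced count (10) was 18 and 16 with the minimum means, 6 to 8 with 1 library left out (6 without HuCCT1/CD90+ replicate 3), 19 with each edgeR fit, 18 with DESeq2 and 6 with the neighbour change removed. The share of all genes that passed moved in the same settings, from 18.9% to 41.7% and 42.2% with the minimum means, 24.7% with median centring, 13.1% with the block, 10.6% to 14.1% with 1 library left out, 27.6% to 44.4% with edgeR, 37.1% with DESeq2 and 16.1% with the neighbour change removed. The cause of these shifts was not tested. The block changed none of the other counts of members, ANGPTL genes, hypoxia induced genes or inhibitors by over 1.5 times. ANGPTL4 had 7 to 14 reads per library, and several receptors were at or under the floor. The part of depth in these low counts was not tested.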
